A study of Mus musculus with 7 samples.

Results

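Killer cell lectin-like receptors and the receptors that accompany them on natural killer (NK) cells were followed in mouse T-cell acute lymphoblastic leukemia through 7 genes: Klrd1, Klrk1, Klrc1, Klrg1, Ncr1, Cd160 and Fasl. All probe sets annotated to exactly 1 of these symbols were taken, which gave 12 of the 45037 probe sets on the array: 4 for Cd160, 2 each for Klrc1 and Fasl, and 1 for each of the others. No probe set that is annotated to several symbols held any of the 7. RNA came from 4 leukemic cell suspensions of thymus from terminally ill C57Bl/6 mice with TEL-JAK2 leukemia, driven by a fusion that keeps the kinase JAK2 active, and from 3 leukemic cell suspensions of bone marrow from terminally ill C57Bl/6 mice with ICN1 leukemia, driven by the activated intracellular part of NOTCH1. Each suspension was hybridised to 1 Affymetrix expression array. The suspensions were crushed, dissociated and filtered, with no sort named in the labels, so other cells of the organ can be present. The labels do not name the promoter or vector behind each oncogene, the age of the animals or any pooling. Genotype and tissue cannot be told apart, since each leukemia was sampled from 1 organ. Separate animals are not stated outright, so each p-value rests on the spread among these suspensions, which may be technical.

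NK cells and cytotoxic T cells read the surface of other cells through paired activating and inhibitory receptors, many of them C-type lectins encoded together in the NK gene complex. CD94, the product of Klrd1, reaches the surface as a partner of the NKG2 proteins encoded by the Klrc genes and binds the non-classical MHC class I molecule Qa-1, whereas NKG2D, the product of Klrk1, binds stress-induced ligands and signals through adaptors. KLRG1 is an inhibitory receptor for cadherins, NKp46 (Ncr1) is a hallmark receptor of NK cells, CD160 binds HVEM, and Fas ligand triggers death of cells that carry Fas.

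All values are log2 expression, with a median over the table of 5.48. TEL-JAK2 replicate 4 held Y-linked transcripts (mean of 9 probe sets 6.56) with Xist at 4.12, whereas ICN1 replicates 1 and 2 held both Y-linked transcripts (5.93 and 6.14) and Xist (8.69 and 9.19). The 4 remaining arrays read Xist without Y-linked signal. In those 4 arrays the Y-linked probe sets read 2.64 to 4.30, which shows how low a probe set can read without its transcript, although each probe set has its own background. Erythroid markers averaged 5.71 to 6.24 in TEL-JAK2 and 12.28 to 12.56 in ICN1, and granulocyte markers 5.25 to 5.67 in TEL-JAK2 and 6.48 to 8.61 in ICN1. Macrophage markers averaged 6.05 to 8.38 in TEL-JAK2 and 8.68 to 10.20 in ICN1, and T-lineage markers 11.73 to 12.07 in TEL-JAK2 and 10.94 to 11.61 in ICN1. The part of these other cells in the results was not tested, and in bulk RNA fewer cells of a type cannot be told apart from less RNA per cell.

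None of the 12 probe sets passed the threshold for a difference between the leukemias, an adjusted p under 0.05 from limma over all probe sets. Of all 45037 probe sets, 19.6% passed it, 4172 (9.26%) higher and 4660 (10.3%) lower in TEL-JAK2. At an unadjusted limma p under 0.05 there were 2 of the 12, Klrd1 and Klrk1, against 32.4% of all probe sets. The test with unequal variances, at an adjusted p under 0.05, called 0 of the 12 and 2266 of all 45037 probe sets. The differences, TEL-JAK2 minus ICN1, were positive for 7 probe sets and negative for 5, with a median of 0.12 against 0.04 over all probe sets. The groups did not overlap in 2 probe sets, both higher in TEL-JAK2 (1 of Fasl and that of Klrk1). Of all probe sets 30.7% had no overlap, 16.2% higher and 14.4% lower in TEL-JAK2. With 1 probe set per gene, none of the 7 genes was called by limma, against 24.1% of 18193 genes. Without ICN1 replicates 1 and 2, the arrays that held both Xist and Y-linked transcripts, Klrd1 differed by 1.77 (limma adjusted p = 0.331) and Klrk1 by 0.87 (limma adjusted p = 0.388), and no member was called. Of the 12 probe sets, 8 averaged under the table's median in both groups. The wider variation lay among the TEL-JAK2 arrays. The SD among the TEL-JAK2 arrays was over 1 log2 for 6 of the 12 probe sets, against 1.49% of all. These 6 belong to Cd160, Fasl and Klrd1 only, and probe sets of 1 gene share their transcript and are not independent counts. Klrk1, Klrc1, Klrg1 and Ncr1 had TEL-JAK2 SDs of 0.65 or less. Among the ICN1 arrays the SD was over 1 log2 for 0 of the 12, against 2.25% of all. The spread itself was not put to a test.

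**Figure D1:**
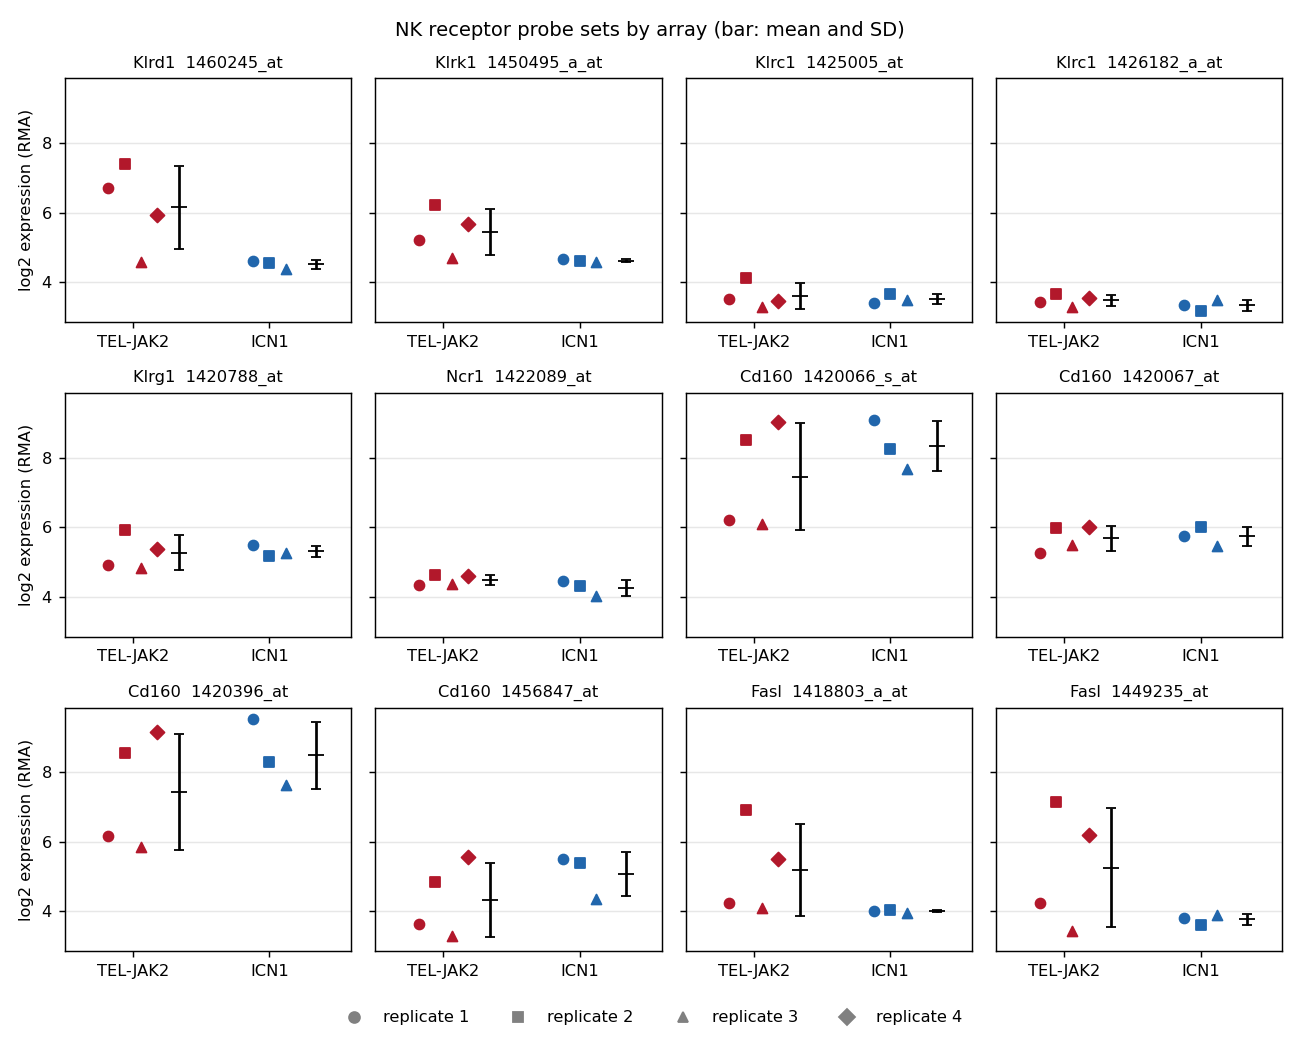
Log2 expression (y axis) of the 12 probe sets in the TEL-JAK2 arrays (left, red) and the ICN1 arrays (right, blue), 1 panel per probe set, with marker shapes for replicates and bars for the group mean and SD. In the Fasl panels TEL-JAK2 replicates 2 and 4 stand above all other arrays, while in 3 of the 4 Cd160 panels TEL-JAK2 replicates 1 and 3 stand below all others.

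Klrd1, which encodes the CD94 chain, read 6.70, 7.39, 4.58 and 5.92 in TEL-JAK2 replicates 1 to 4, against 4.60, 4.56 and 4.37 in ICN1 replicates 1 to 3. Replicates 1, 2 and 4 of TEL-JAK2 were above every ICN1 array, and replicate 3 lay within the ICN1 range. The means were 6.15 ± 1.20 (SD, n = 4) in TEL-JAK2 and 4.51 ± 0.12 (SD, n = 3) in ICN1, a 3.11-fold difference of 1.64 ± 0.59 (SE) on the log2 scale with a 95% interval of 0.26 to 3.01 (limma adjusted p = 0.0978). An exact two-sided permutation test over the 35 assignments of the arrays, whose smallest possible p is 0.0286, gave p = 0.0857. Without TEL-JAK2 replicate 3 the difference was 2.16 and was called by limma (adjusted p = 0.0105). Left out in turn, the other 6 arrays gave adjusted p from 0.136 to 0.209.

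Transcripts for the partners of CD94 read low in every array. Klrc1, which encodes the inhibitory chain NKG2A, read 3.53, 4.12, 3.29 and 3.47 in TEL-JAK2 and 3.40, 3.67 and 3.48 in ICN1 on probe set 1425005_at (0.09 ± 0.20, 95% interval -0.38 to 0.55, limma adjusted p = 0.816). Probe set 1426182_a_at read 3.29 to 3.65 in TEL-JAK2 and 3.17 to 3.50 in ICN1 (0.15 ± 0.12, limma adjusted p = 0.472). Both groups overlapped on both probe sets, and no array of either group reached above 4.12. Klrc2 and Klrc3, named after their values were seen, encode other NKG2 chains that pair with CD94. Klrc2 read 3.20 to 3.43 in TEL-JAK2 and 3.36 to 3.45 in ICN1, and Klrc3 read 3.03 to 3.31 in TEL-JAK2 and 2.97 to 3.17 in ICN1. These values lie within the span of the Y-linked probe sets in arrays without Y-linked signal.

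Klrk1, which encodes the activating receptor NKG2D, differed in the same direction as Klrd1 and by less. It read 5.21, 6.21, 4.69 and 5.66 in TEL-JAK2, against 4.66, 4.61 and 4.57 in ICN1. Every TEL-JAK2 array was above every ICN1 array, but replicate 3 by only a small margin. The difference was 0.83 ± 0.32 (1.77-fold, 95% interval 0.07 to 1.58, limma adjusted p = 0.122; exact permutation p = 0.0571). Without TEL-JAK2 replicate 3 it was 1.08 and was called (limma adjusted p = 0.0333), and with any other single array left out the limma adjusted p was 0.168 to 0.226. The SD was 0.65 among the 4 TEL-JAK2 arrays and 0.04 among the 3 ICN1 arrays.

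Klrk1 and Klrc1 lie close together on chromosome 6, and the TEL-JAK2 arrays separated from the ICN1 arrays in Klrk1 while they overlapped in Klrc1. RefSeq windows from 250 bases before to 50 after their starts (GRCm38.p6) are shown for that reason. Capitals mark every match, on either strand, to the STAT motif TTCNNNGAA, the T-box core TCACAC or the RUNX core TGTGGT, which occur in 8.3%, 14.5% and 16.8% of 32851 such windows. The window of Klrk1 is chr6:129623815-129624114 on the minus strand and that of Klrc1 is chr6:129678924-129679223 on the minus strand. Each holds 1 RUNX core, read on the printed strand in Klrk1 and on the other strand in Klrc1, and neither holds a STAT or T-box match.
Klrk1: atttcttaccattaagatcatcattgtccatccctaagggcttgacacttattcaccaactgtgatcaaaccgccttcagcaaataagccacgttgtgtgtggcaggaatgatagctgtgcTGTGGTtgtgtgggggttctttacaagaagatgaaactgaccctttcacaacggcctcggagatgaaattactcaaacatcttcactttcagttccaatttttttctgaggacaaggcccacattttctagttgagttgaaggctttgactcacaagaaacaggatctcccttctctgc
Klrc1: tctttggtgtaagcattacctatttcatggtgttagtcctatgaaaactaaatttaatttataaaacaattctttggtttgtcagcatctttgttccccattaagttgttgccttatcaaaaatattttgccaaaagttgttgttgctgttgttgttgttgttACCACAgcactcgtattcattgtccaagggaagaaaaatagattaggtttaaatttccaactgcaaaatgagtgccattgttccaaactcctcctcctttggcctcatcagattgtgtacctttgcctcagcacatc
The matches do not overlap each other. A match is a run of letters and not a site, and its absence says only that these letters are not in the window. Windows were matched for 5 of the 7 genes.

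Klrg1, the inhibitory receptor for cadherins, read 4.91, 5.92, 4.84 and 5.39 in TEL-JAK2, against 5.49, 5.18 and 5.27 in ICN1. TEL-JAK2 replicate 2 was the highest array and replicates 1 and 3 the lowest, so the groups overlapped. The difference was -0.05 ± 0.26 (95% interval -0.66 to 0.57, limma adjusted p = 0.925). Among the 4 TEL-JAK2 arrays the values spanned 2.12-fold, and among the 3 ICN1 arrays 1.24-fold.

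Ncr1, which encodes NKp46, the receptor by which NK cells are usually recognised across mouse tissues, read 4.33, 4.61, 4.38 and 4.60 in TEL-JAK2, against 4.45, 4.30 and 4.01 in ICN1. The groups overlapped, and no array was above 4.61. The difference was 0.23 ± 0.14 (95% interval -0.09 to 0.55, limma adjusted p = 0.305), and with 1 array left out 0.11 (without ICN1 replicate 3) to 0.33 (without ICN1 replicate 1). The SD among TEL-JAK2 arrays, 0.15, was close to the median over all probe sets, 0.16.

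**Figure D2:**
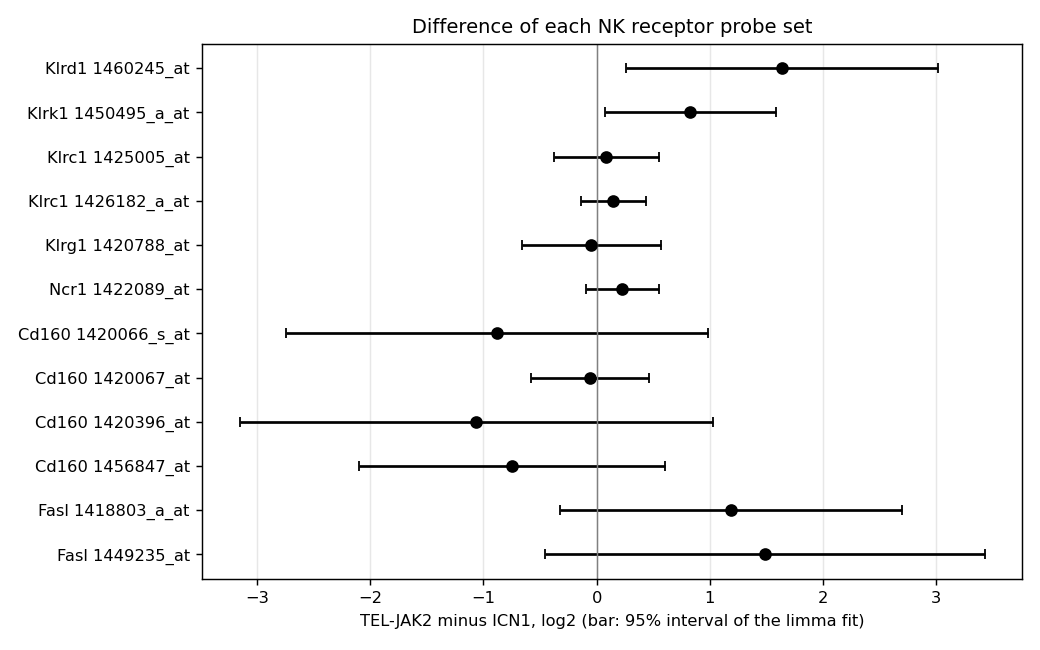
Difference in log2 expression, TEL-JAK2 minus ICN1 (x axis), of each probe set (y axis), with the 95% interval of the limma fit over 4 TEL-JAK2 and 3 ICN1 arrays. Only the intervals of Klrd1 (0.26 to 3.01) and Klrk1 (0.07 to 1.58) leave out 0, before any adjustment for the number of probe sets.

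Cd160, an immunoglobulin-like receptor of NK cells and intraepithelial T cells, differed in the opposite direction, without passing the test. Its probe set 1420396_at read 6.16, 8.55, 5.86 and 9.15 in TEL-JAK2, against 9.54, 8.30 and 7.64 in ICN1. TEL-JAK2 replicates 2 and 4 lay within the ICN1 range, while replicates 1 and 3 lay below it. The difference was -1.06 ± 0.89 (95% interval -3.15 to 1.03, limma adjusted p = 0.473), and the TEL-JAK2 values spanned 9.77-fold. With 1 array left out it was -1.64 (without TEL-JAK2 replicate 4) to -0.54 (without ICN1 replicate 1 or TEL-JAK2 replicate 3). Probe set 1420066_s_at gave the same order of TEL-JAK2 arrays with 6.21, 8.51, 6.08 and 9.03, against 9.09, 8.24 and 7.68 in ICN1 (-0.88 ± 0.80, limma adjusted p = 0.506). Probe set 1456847_at read 3.63, 4.86, 3.28 and 5.56 in TEL-JAK2, against 5.49, 5.39 and 4.35 in ICN1 (-0.75 ± 0.58, limma adjusted p = 0.431). With 1 array left out these differences were -1.40 to -0.42 for 1420066_s_at and -1.16 to -0.40 for 1456847_at, the first of each without TEL-JAK2 replicate 4 and the second without TEL-JAK2 replicate 3. In these 3 probe sets TEL-JAK2 replicates 1 and 3 were the lowest of the 7 arrays. The remaining probe set, 1420067_at, read 5.25 to 6.00 in TEL-JAK2 and 5.46 to 5.99 in ICN1 and differed by -0.06 ± 0.22 (limma adjusted p = 0.886), with a TEL-JAK2 span of 1.68-fold. With the arrays centred on the mean of 4 CD3 genes, 1420067_at was called lower (-0.68, limma adjusted p = 0.0391). That setting lowers every difference. It called 31563 of all 45037 probe sets, only 4.94% of these higher, so the call is not read as particular to Cd160.

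Fasl, the death ligand of the group, was low in ICN1 and split the TEL-JAK2 arrays. Probe set 1449235_at read 4.25, 7.13, 3.44 and 6.20 in TEL-JAK2, against 3.81, 3.60 and 3.90 in ICN1. Probe set 1418803_a_at read 4.23, 6.93, 4.09 and 5.52 in TEL-JAK2, against 4.02, 4.04 and 3.97 in ICN1. In both, TEL-JAK2 replicates 2 and 4 stood well above the ICN1 arrays and replicates 1 and 3 stood beside them. The TEL-JAK2 values spanned 12.9-fold and 7.14-fold, and the ICN1 values 1.23-fold and 1.05-fold. The group differences were 1.49 ± 0.83 (95% interval -0.46 to 3.43, limma adjusted p = 0.27) and 1.18 ± 0.65 (-0.32 to 2.69, limma adjusted p = 0.258), with exact permutation p = 0.286 and p = 0.171. No single array left out brought either probe set past the threshold (limma adjusted p from 0.0959 to 0.457). Without TEL-JAK2 replicate 2 the differences were 0.86 for 1449235_at and 0.61 for 1418803_a_at.

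The windows at the starts of Cd160 and Fasl are shown because the TEL-JAK2 arrays spanned the most within these genes. The Cd160 window given here, chr3:96814472-96814771 on the minus strand, is 1 of 2 annotated starts and holds 1 STAT, 1 T-box and 1 RUNX match. The Fasl window, chr1:161788446-161788745 on the minus strand, holds 0 matches to the 3 motifs.
Cd160: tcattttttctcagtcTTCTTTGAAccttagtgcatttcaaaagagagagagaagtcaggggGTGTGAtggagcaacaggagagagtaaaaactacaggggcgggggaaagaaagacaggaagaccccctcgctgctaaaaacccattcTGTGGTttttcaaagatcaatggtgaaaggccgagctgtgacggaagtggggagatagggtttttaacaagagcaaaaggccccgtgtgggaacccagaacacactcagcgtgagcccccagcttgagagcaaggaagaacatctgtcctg
Fasl: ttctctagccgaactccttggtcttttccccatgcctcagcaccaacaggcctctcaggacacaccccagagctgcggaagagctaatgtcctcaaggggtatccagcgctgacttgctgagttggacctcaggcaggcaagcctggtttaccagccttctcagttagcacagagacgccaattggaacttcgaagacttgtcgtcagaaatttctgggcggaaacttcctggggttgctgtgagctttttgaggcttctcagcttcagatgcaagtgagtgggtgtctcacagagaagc
The other Cd160 start holds 1 T-box and 1 RUNX match, and both overlapping Ncr1 windows hold 1 T-box and 2 RUNX matches.

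The highest pair of TEL-JAK2 arrays was shared by most members, although the full order was not. Replicates 2 and 4 were the highest pair in 10 of the 12 probe sets. Of all probe sets 18.0% had that pair, and of the 670 probe sets with a TEL-JAK2 SD over 1 log2, 48.4%. The exceptions were Klrd1 and probe set 1425005_at of Klrc1, where replicate 1 took second place behind replicate 2. Within the pair, replicate 4 came first in Cd160 and replicate 2 in the other members. Ncr1 and probe set 1426182_a_at of Klrc1 count among the 10, although their TEL-JAK2 SDs (0.15 each) were under the median of all probe sets, 0.16. Replicate 3 was the lowest of the 4 in 10 of the 12, against 22.7% of all probe sets. Probe sets of 1 gene share their transcript and are not independent counts. The same replicates also differed in markers of other cells: the macrophage list averaged 6.78, 8.14, 6.05 and 8.38 in TEL-JAK2 replicates 1 to 4 (10.20, 9.98 and 8.68 in ICN1), and the cytotoxic effector list 6.91, 9.45, 6.68 and 8.90 (6.07, 5.47 and 5.73 in ICN1). The T-lineage list was lower in TEL-JAK2 replicates 2 and 4 (11.86 and 11.73) than in replicates 1 and 3. The part of the macrophages or of any other cells in the members' values was not tested.

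**Figure D3:**
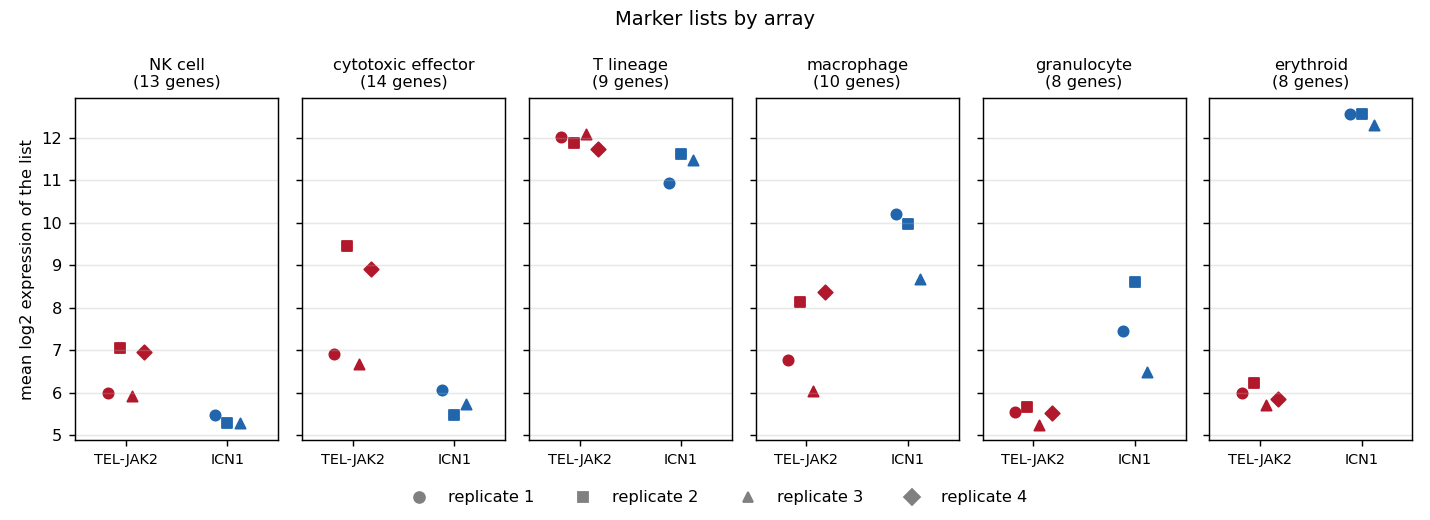
Mean log2 expression (y axis) of 6 marker lists in each TEL-JAK2 array (left, red) and ICN1 array (right, blue), with marker shapes for replicates. TEL-JAK2 replicates 2 and 4 stand above replicates 1 and 3 in the NK cell, cytotoxic effector and macrophage lists and below them in the T-lineage list. The NK cell and cytotoxic effector lists share Gzma, Prf1, Nkg7 and Ccl5, so these lists are not independent.

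Profiles most like each member were found by the root mean square distance between mean-centred log2 profiles over the 7 arrays, among 5929 genes that spanned at least 1 log2. Nearest to Fasl were Zbtb32 (0.14) and Prdm1 (0.22), both transcriptional repressors of activated lymphocytes, and the granzyme gene Gzmc (0.26). Zbtb32 read 5.15, 7.36, 4.78 and 6.15 in TEL-JAK2 and 4.74, 4.85 and 4.68 in ICN1. Nearest to Klrk1 were Gpr35 (0.12), a G protein-coupled receptor, Foxp3 (0.13), the master factor of regulatory T cells, and Spon1 (0.13). Foxp3 read 4.42, 5.52, 4.21 and 5.05 in TEL-JAK2 and 3.96, 3.77 and 3.69 in ICN1. Nearest to Klrd1, at larger distances, were Tph1 (0.34), an enzyme of serotonin synthesis, Rnase6 (0.38) and Naaa (0.40). Nearest to Cd160 were Fcgr3 (0.39), an Fc receptor of myeloid and NK cells, Pla2g7 (0.41), and C1qa (0.42), a complement gene of macrophages. C1qa read 8.03, 10.24, 7.07 and 10.17 in TEL-JAK2 and 10.82, 10.62 and 9.45 in ICN1, with the same 2 low TEL-JAK2 arrays as Cd160. Nearest to Klrg1 were Uap1l1 (0.09), Hk3 (0.11) and Cyp4v3 (0.12). Klrc1 and Ncr1 spanned less than 1 log2 over the arrays and were not matched.

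**Figure D4:**
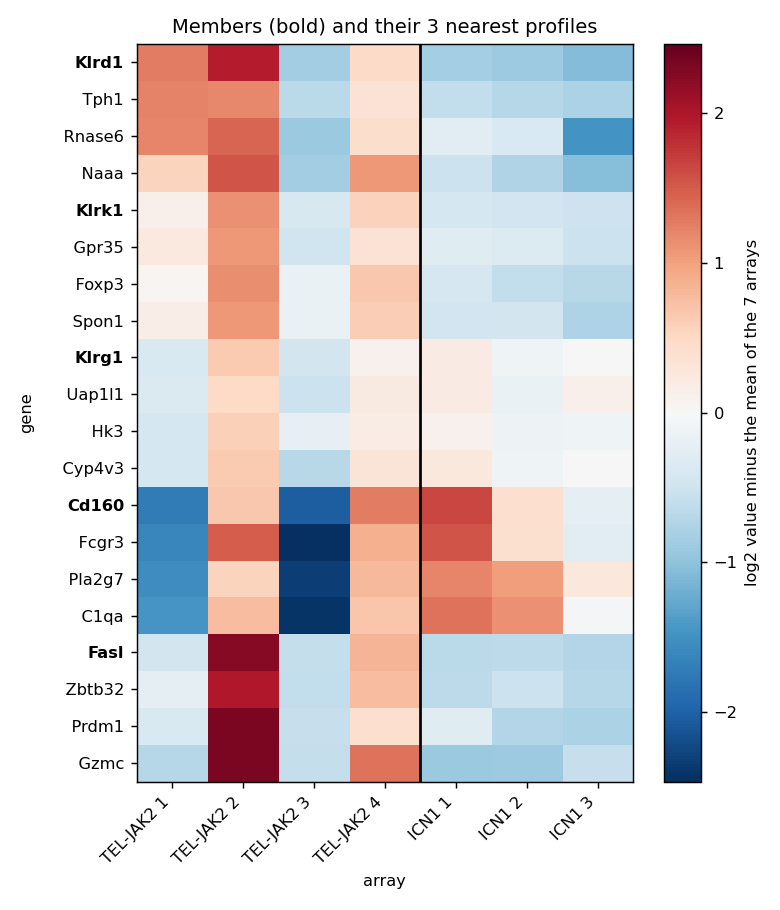
Log2 values minus the mean of the 7 arrays (colour) for 5 members in bold and the 3 genes nearest to each (rows), in 4 TEL-JAK2 arrays (left of the line) and 3 ICN1 arrays (right). Fasl and its neighbours are high in TEL-JAK2 replicates 2 and 4, and Cd160 and its neighbours are low in TEL-JAK2 replicates 1 and 3.

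Related genes were read from lists, whose counts below are as deposited unless a setting is named. Over all probe sets, 9.26% were called higher and 10.3% lower in TEL-JAK2. A count near or under these shares is not read as a result about the list. With the arrays centred on 4 CD3 genes, which lowers every difference, more probe sets were called lower. Of all 45037 probe sets, 31563 were then called, and only 4.94% of these were higher. Most of the array was thus called lower, and the lower counts of a list are not read as particular to it. That setting gave 2 probe sets higher and 9 lower among other killer lectin-like receptors, 0 and 13 among lectin and neighbouring genes of the complex, 3 and 3 among other receptors, 4 and 7 among adaptors, 2 and 4 among genes that inhibitory receptors recruit, and 0 and 6 among ligands. It gave 2 higher and 13 lower in the Fas pathway, 5 and 7 among regulators, 3 and 2 among interleukin-2 family genes, 2 and 4 among NK markers, 4 and 0 among cytotoxic effectors, 5 and 3 among genes of innate-like T cells and 7 and 1 among T-lineage markers. Erythroid probe sets were 0 higher and 13 lower, granulocyte 0 and 8, macrophage 0 and 17 and B-lineage 1 and 12. The 4 centring genes (Cd3d, Cd3e, Cd3g and Cd247) belong to the T-lineage list, and Cd247 also to the adaptors. The counts of both lists under this setting are thus partly set by the centring itself. Among 14 further killer lectin-like receptor genes (21 probe sets), 1 gene was called, Klrb1f, an NKR-P1 lectin, with both of its probe sets higher in TEL-JAK2. These 2 of 21 lie close to the 9.26% of all probe sets called higher. Klrb1f read 5.28, 5.62, 6.52 and 5.73 in TEL-JAK2, against 4.24, 4.13 and 4.06 in ICN1 (3.13-fold, 1.64 ± 0.27, limma adjusted p = 0.00547). Here replicate 3, the lowest TEL-JAK2 array for most members, was the highest. The family's median difference was 0.15, against 0.04 over all probe sets. Klra8 (0.03 ± 0.09) and Klra5 (0.03 ± 0.23), receptors of the Ly49 group, were not called. The list held 35 genes, of which the others had no probe set with 1 symbol, and probe sets of such close relatives may share signal. Klrb1b, another NKR-P1 gene that was named after its values were seen, read 3.95, 5.39, 3.60 and 4.63 in TEL-JAK2, against 3.48, 3.36 and 3.26 in ICN1 (1.03 ± 0.39, limma adjusted p = 0.12), the array order of Klrk1.

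Along the NK gene complex on chromosome 6, from Klrb1a to Klra2, 32 of 48 protein-coding genes in RefSeq had a probe set with 1 symbol, taking the brightest for each gene. Klrb1f and Clec2d, which encodes a ligand of the NKR-P1 receptors (0.97 ± 0.21, limma adjusted p = 0.017), were the 2 genes called higher in TEL-JAK2. Clec1b, a receptor of platelets and megakaryocytes, was the 1 gene called lower (-3.42 ± 0.39, limma adjusted p = 0.0013), at 4.23 to 5.19 in TEL-JAK2 and 7.16 to 8.77 in ICN1. In 19 of the 32 genes no array read above 5. Klre1, the neighbour of Klrd1, read 3.56 to 3.77 in TEL-JAK2 and 3.48 to 3.61 in ICN1.

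**Figure D5:**
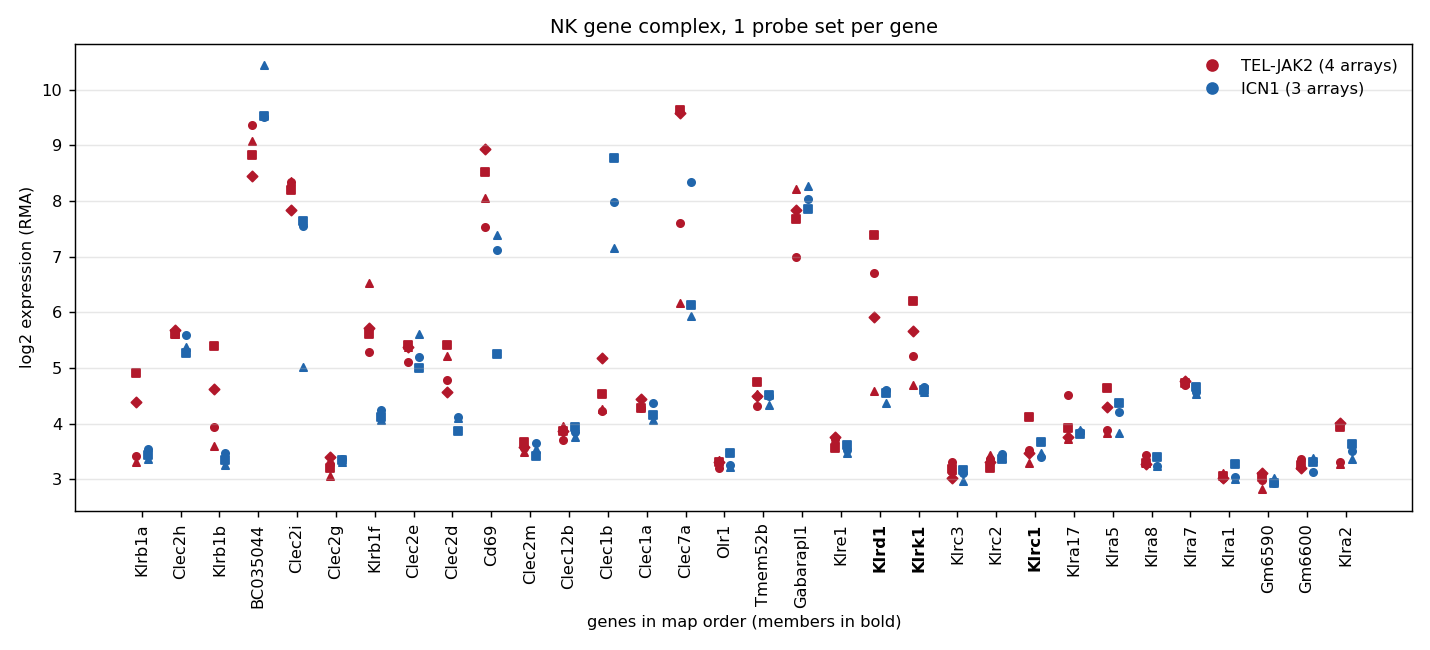
Log2 expression (y axis) of the 32 measured genes of the NK gene complex in map order (x axis), in 4 TEL-JAK2 arrays (red) and 3 ICN1 arrays (blue), with marker shapes for replicates 1 to 4 (circle, square, triangle, diamond). Klrd1 and Klrk1 reach 7.39 and 6.21 in TEL-JAK2, while Klre1 and Klrc1 beside them stay at or below 4.12.

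Of 12 other receptors of NK and T cells (15 probe sets), 4 probe sets were called higher and 3 lower in TEL-JAK2, with a median difference of 0.67. Cd96, a receptor for nectins, was higher (11.10 ± 0.50 (SD, n = 4) in TEL-JAK2 and 6.64 ± 1.02 (SD, n = 3) in ICN1, 4.47 ± 0.48, limma adjusted p = 0.000976). Cd2 (1.26 ± 0.14) and Cd27 (0.88 ± 0.19), costimulatory receptors of T and NK cells, were higher too, as was the inhibitory receptor gene Pdcd1, named after its values were seen (2.72 ± 0.68, with TEL-JAK2 replicate 4 far above the other TEL-JAK2 arrays). Slamf6, a homophilic receptor, was lower on all 3 of its probe sets (-1.62 ± 0.39 on the brightest, limma adjusted p = 0.0256). Fcgr3 (limma adjusted p = 0.552) and the MHC class II receptor Lag3 (-0.16 ± 0.80) were not called.

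Genes that carry the receptors' signals were higher in part. Of 14 genes for adaptors and proximal signalling (30 probe sets), 12 probe sets were called higher and 0 lower in TEL-JAK2, with a median difference of 0.45. Hcst, which encodes DAP10, an adaptor of NKG2D, read 8.88, 9.60, 9.59 and 10.20 in TEL-JAK2, against 7.39, 7.90 and 7.81 in ICN1 (3.65-fold, 1.87 ± 0.29, limma adjusted p = 0.00463), without overlap. Plcg1 (10.64 ± 0.11 (SD, n = 4) in TEL-JAK2 and 9.64 ± 0.03 (SD, n = 3) in ICN1), Lat (1.11 ± 0.15) and Lcp2 (1.58 ± 0.26), which T-cell receptors also use, were higher as well. Tyrobp, which encodes the adaptor DAP12, read 9.37, 10.57, 7.69 and 9.63 in TEL-JAK2 and 10.03, 9.63 and 8.65 in ICN1, and was not called (-0.12 ± 0.65, limma adjusted p = 0.923). Of 6 genes that inhibitory receptors recruit (10 probe sets), 3 probe sets were higher and 1 lower, with Inpp5d, the phosphatase SHIP-1, at 1.30 ± 0.15 (limma adjusted p = 0.00145) and Ptpn11, the phosphatase SHP-2, at -0.39 ± 0.11 (limma adjusted p = 0.0409).

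Among genes for ligands of the receptors, 0 of 9 probe sets (6 genes) were called by limma as deposited (6 were called lower with CD3 centring), and 1 had an unadjusted p under 0.05. That was Cdh1, the E-cadherin bound by KLRG1, named here after its values were seen, which read 5.82, 5.67, 4.80 and 9.18 in TEL-JAK2, against 3.93, 3.96 and 4.19 in ICN1 (2.34 ± 0.94, limma adjusted p = 0.132), with replicate 4 far above the others. Tnfrsf14, the HVEM bound by CD160 and also named after its values were seen, differed by -0.64 ± 0.29 (limma adjusted p = 0.171). The ligand list held 14 genes, and those not measured had no probe set with 1 symbol. The measured genes include none for Qa-1, so these counts do not cover that ligand of CD94. Fas, the receptor of Fas ligand, was named after its values were seen. It read 9.03, 8.85, 8.98 and 7.76 in TEL-JAK2, against 6.26, 7.52 and 4.96 in ICN1, a 5.31-fold difference of 2.41 ± 0.59 (limma adjusted p = 0.0269) without overlap, with replicate 4 the lowest TEL-JAK2 array. The 11 genes of the Fas pathway that were measured (23 probe sets) had 7 probe sets higher and 5 lower in TEL-JAK2. Cflar, which encodes the inhibitor FLIP, was higher (1.17 ± 0.21), as was Faim2 (0.46 ± 0.10). Casp8, named after its values were seen, was higher too (0.64 ± 0.18, limma adjusted p = 0.0486). Bid, which links the death receptor to mitochondria (-1.08 ± 0.26), and Adam10, a protease that sheds Fas ligand (-0.63 ± 0.13), were lower.

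Transcription factors and cytokine receptors of cytotoxic cells were called in part. Of 18 regulators (39 probe sets), 11 probe sets were higher and 0 lower in TEL-JAK2, among them Stat4 (3.92 ± 0.40), a mediator of interleukin-12 signals, and Bcl11b (1.62 ± 0.15), a factor of T-cell commitment. Tbx21, which encodes T-bet and was named after its values were seen, read 4.74, 8.53, 4.48 and 7.59 in TEL-JAK2, against 4.54, 4.05 and 4.20 in ICN1 (2.07 ± 0.99, limma adjusted p = 0.2), the array order of Fasl. Of 9 genes for interleukin-2 family and related receptors and ligands (13 probe sets), 3 probe sets were higher and 0 lower. Il2rb, the chain shared by the interleukin-2 and interleukin-15 receptors, read 8.81, 10.87, 8.31 and 10.19 in TEL-JAK2, against 8.13, 5.37 and 5.68 in ICN1 (3.15 ± 0.83, limma adjusted p = 0.0359). Il12rb1 was higher by 1.94 ± 0.29.

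The label of NK receptors was set against markers of NK cells. Of 13 NK marker genes (17 probe sets), 2 probe sets were higher in TEL-JAK2 and 0 lower, against 9.26% and 10.3% of all probe sets. The list averaged 5.93 to 7.05 in TEL-JAK2 and 5.28 to 5.49 in ICN1. The called genes were Nkg7 (4.90 ± 0.65), a protein of cytotoxic granules, and the granzyme gene Gzma (14.30 ± 0.23 (SD, n = 4) in TEL-JAK2 and 12.12 ± 0.81 (SD, n = 3) in ICN1, 2.18 ± 0.35), both of which cytotoxic T cells also express. The 11 other genes were not called, and those among them beyond Ccl5, Cma1 and Klra8 are named to complete the list, after their values were seen. The chemokine gene Ccl5, also made by T cells, read 7.39, 11.28, 6.15 and 11.11 in TEL-JAK2, against 7.41, 6.41 and 6.50 in ICN1 (limma adjusted p = 0.288). The perforin gene Prf1 read 6.09, 9.44, 6.52 and 8.41 in TEL-JAK2, against 5.06, 5.56 and 6.12 in ICN1 (limma adjusted p = 0.122). The highest TEL-JAK2 values of the cytokine receptor gene Il18rap (7.06), the T-box gene Eomes (5.95), the serpin gene Serpinb9b (5.87) and the chemokine gene Xcl1 (5.07) were likewise in replicates 2 or 4, and Xcl1 was higher in every TEL-JAK2 array than in any ICN1 array (0.84 ± 0.35, limma adjusted p = 0.149). Replicates 2 and 4 were the highest TEL-JAK2 pair in 7 of the 13 genes. In the remaining genes the differences were small: Klra8, Klre1, Klra7, Itga2 and Cma1 did not exceed 3.44, 3.77, 4.77, 4.61 and 5.02 in any array. Of 14 cytotoxic effector genes (16 probe sets), 5 probe sets were higher and 0 lower, and of 6 genes of other innate-like T cells (12 probe sets), 4 were higher and 0 lower. The cytotoxic effector list shares Gzma, Nkg7, Ccl5 and Prf1 with the NK markers. Of the T-lineage probe sets, 14 of 20 were higher and 1 lower, and of 14 lectin and neighbouring genes of the complex (19 probe sets), 1 was higher and 1 lower. For that lectin list both counts lie under the shares of all probe sets. Erythroid probe sets were lower in 13 of 13, granulocyte in 5 of 8 and macrophage in 9 of 17, and B-lineage probe sets were higher in 1 of 23.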

How the data were processed

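Values were used as the authors deposited them, in log2 units per probe set. The submitters' processing notes name RMA, with no version or setting. RMA pulls arrays toward a shared distribution and compresses folds near background. Precision is limited by the number of arrays. Symbols came from the platform's annotation: 34945 of 45037 probe sets had 1, 932 several and 9160 none. All 7 genes matched RefSeq (GRCm38.p6) by Entrez ID.

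Every probe set was tested by limma (version 3.58.1, under R 4.3.3) with moderated variances, two-sided, as TEL-JAK2 minus ICN1. P-values were adjusted by Benjamini-Hochberg over all 45037, with calls at an adjusted p under 0.05. Replicates are numbered in accession order. The 7 members and 17 gene lists were chosen with earlier results of these data known. The rule for names took all member probe sets, up to 4 called list genes with the smallest adjusted p and up to 2 list genes with the largest, the 3 brightest genes of each list of other cell types, the 3 nearest profiles and the members of small counts. Genes it gave in lists of other cell types are mostly not described. A list gene stands for its brightest probe set. Genes named after their values were seen are marked as such. Alternatives covered the unit, probe set types, a filter on dim probe sets, scaling, moderation, array weights, the null hypothesis, unequal variances, the threshold and arrays left out. On simulated arrays of 45037 probe sets with 4 and 3 replicates, limma called 51 of 100 true changes of size 1 and 87 of 100 of size 2 (log2), with 11 false calls. The changed probe sets were drawn at random from the array, where the median TEL-JAK2 SD was 0.16. That SD was over 1 log2 for 6 of the 12 member probe sets. Far fewer probe sets were changed than were called in the data. These rates therefore do not give the chance of calling a change in a member. Figures used matplotlib 3.10.9.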

Additional observations from a re-analysis of the deposited data

Results flagged for a closer look

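Among 124 probe sets of the members and other named genes, without Casp8, 3 had a TEL-JAK2 array far from the other 3 by Dixon's test. None of the 12 member probe sets did. Fas, the receptor of Fas ligand, read 7.76 in TEL-JAK2 replicate 4, against 8.85 to 9.03 in the other TEL-JAK2 arrays. Pdcd1, the inhibitory receptor gene, read 10.3 in TEL-JAK2 replicate 4, against 8.69 to 8.81 in the others. The probe set of Klra8 read 3.44 in TEL-JAK2 replicate 1, against 3.28 to 3.30 in the others. Chance gives about 1 such group in 20, and 3 of 124 is under that rate. Fas and Pdcd1 entered the tested set after their values were seen.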

How the results depend on the processing

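Member probe sets called higher numbered 0 under every alternative run except without TEL-JAK2 replicate 3, which gave 2 (Klrd1 and Klrk1), so leaving out single arrays gave 0 to 2. Member probe sets called lower numbered 0 except with CD3 centring, which gave 1 (Cd160 1420067_at). CD3 centring moved the median of all probe sets to -0.59 and called 31563 of them, 4.94% of these higher against 47.2% as deposited, and 153 list probe sets against 98. It gave -0.39 for Ncr1 and -0.54 and -0.47 for the probe sets of Klrc1. All probe sets called numbered 8832 as deposited, 4380 with the brightest probe set per gene, 4329 with the mean per gene, 2196 against a 1.5-fold difference (40.5% higher), 2266 with unequal variances, 4152 at an adjusted p under 0.01, 5813 without ICN1 replicates 1 and 2, and 6175 to 8563 with 1 array left out. List probe sets called numbered 63, 61, 37, 23, 45 and 51 in the same order, and 62 to 89 with 1 array left out, the lowest without TEL-JAK2 replicate 1. Without ICN1 replicates 1 and 2 the lone ICN1 array was assumed to vary like the TEL-JAK2 arrays, and Cd160 1420067_at gave 0.22 and Klrc1 1426182_a_at turned negative. With 1 array left out, Klrg1 gave -0.27 to 0.09, Cd160 1420067_at -0.20 to 0.08 and Klrc1 1425005_at -0.09 to 0.19, none of them called. To 3 digits, the reversed values were 0.0817, 0.0686 and 0.00675 (Cd160 1420067_at), 0.0941, 0.0713 and 0.0406 (Klrg1), -0.0877 (Klrc1 1425005_at) and -0.0146 (Klrc1 1426182_a_at). The cause of these changes was not tested. Of 230 member differences recomputed, 215 kept their direction and side of the threshold. Several settings changed only the test, the threshold or the probe sets kept, and there the difference was the same by construction. With no member called as deposited, a stricter threshold could not change its side either. This count is therefore no measure of stability. Dim member probe sets had no value where dim probe sets were left out, and a log transform was not run because the values are log2 already. No paired analysis was possible because replicate numbers follow accession order and pair nothing.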
